A study of Saccharomyces cerevisiae BY4741 with 6 samples.

Results

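The genes described here encode the general chaperones of the yeast cytosol, in the Hsp70, Hsp110, Hsp90 and Hsp40 families. The Hsp70 genes are SSA1 (YAL005C), SSA2 (YLL024C), SSA3 (YBL075C) and SSA4 (YER103W), and the Hsp110 genes are SSE1 (YPL106C) and SSE2 (YBR169C). The Hsp90 genes are HSC82 (YMR186W) and HSP82 (YPL240C), and the Hsp40 genes are YDJ1 (YNL064C) and SIS1 (YNL007C). They are 10 of the 5631 rows of the deposited table and were taken by their systematic names, and all 10 were found. The group was chosen by family with the fold changes between the strains in these same libraries already in view, and so counts as selected on them. The strain differences below are therefore a description of these libraries and support nothing further. Of the 10 genes, 6 are classed here as constitutive (SSA1, SSA2, SSE1, HSC82, YDJ1, SIS1) and 4 as inducible (SSA3, SSA4, SSE2, HSP82), from general knowledge of yeast. The classes are not strict, since SSA1 and SIS1 are also known to respond to heat.

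The libraries came from 6 shake-flask cultures of Saccharomyces cerevisiae BY4741, a laboratory strain, and each was made from poly(A) RNA by a strand-specific protocol. The wild type (3 cultures) is MATa with the marker alleles his3[delta]1 for histidine, leu2[delta]0 for leucine, met15[delta]0 for methionine and ura3[delta]0 for uracil. The deletion strain (3 cultures) shares all of these alleles and has PEX3 replaced by kanMX4. Pex3 is a membrane protein that is needed to build peroxisomes, and the comparison asks whether its loss affects the transcriptome of cells grown on acetate. Both strains were pre-grown on 0.5% glucose, moved through successive dilutions in mineral medium with 0.5% acetate at 30 degrees Celsius, and collected at an optical density of 0.5 at the second growth cycle. Each genotype is 1 stock of a strain collection. The row of PEX3 was not analysed here, so the strain labels were taken as given.

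Hsp70 proteins bind exposed hydrophobic stretches of unfolded proteins and release them in a cycle driven by ATP. Hsp40 proteins, which carry a J domain, deliver clients to Hsp70 and stimulate its ATPase, and Hsp110 proteins exchange its nucleotide so that the client is released. Hsp90 receives part of these clients and matures kinases, receptors and other signalling proteins. In yeast the heat shock factor Hsf1 binds heat shock elements, which are inverted repeats of GAA and TTC, and Msn2 and Msn4 bind the stress response element. Many genes of the group are targets of Hsf1, and yeast cells keep constitutive and stress-inducible copies of most of these chaperones.

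The upstream sequences are shown first because the members differ in which motifs of the heat shock and stress regulators they hold. The 400 bases before each start codon were read from the R64 assembly and searched on both strands for the 3-unit heat shock element (GAANNTTCNNGAA or TTCNNGAANNTTC), the 2-unit element (GAANNTTC or TTCNNGAA) and the stress response element (AGGGG or CCCCT). Every 3-unit match also holds 2 overlapping 2-unit matches. The stretches below are a selection, namely every 3-unit match and 1 stretch with 2-unit matches for each of HSC82, HSP82, SSA4 and SSE2. The remaining 2-unit matches, among them the one upstream of YDJ1, are shown in the plot of motif positions. They run from 5′ to 3′ on the strand of the gene, and capitals mark the letters of heat shock elements.
SSA1, chrI:141770-141803, minus strand: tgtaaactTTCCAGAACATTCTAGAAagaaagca
SSA1, chrI:141672-141700, minus strand: tcttctttTTCCAGAACGTTCcatcggcg
SSA2, chrXII:97698-97740, minus strand: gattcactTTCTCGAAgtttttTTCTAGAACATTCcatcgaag
SSE1, chrXVI:352441-352469, minus strand: gaagatgaTTCTAGAAGATTCcttttcca
SIS1, chrXIV:619879-619917, minus strand: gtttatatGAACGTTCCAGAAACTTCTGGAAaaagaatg
HSC82, chrXIII:632130-632185, plus strand: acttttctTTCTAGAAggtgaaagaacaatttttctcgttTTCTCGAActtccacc
HSP82, chrXVI:98845-98868, minus strand: tcttttttTTCTAGAAcgccgtgg
SSA4, chrV:364328-364351, plus strand: gaagtacaTTCTAGAAgttcctag
SSE2, chrII:576218-576241, minus strand: gtagacgtTTCTAGAAcgtcccct

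The 3-unit element lay upstream of 4 of the 10 genes, SSA1, SSA2, SSE1 and SIS1, all of them constitutive. It was present in 73 of 6001 windows of the same length upstream of protein-coding genes, or 1.22%. SSA1 and SIS1 each held 3 overlapping or separate matches. The 2-unit element lay upstream of 9 of the 10 genes, against 29.3% of all windows, and SSA3 was the gene without it. The stress response element was found upstream of 4 of the 10 genes, against 28.9% of all windows. These were 3 of the 4 inducible genes (SSA4, SSE2 and HSP82) and 1 of the 6 constitutive genes (SSA1), a split that was not tested. In SSE2 the letters of the stress response element begin a few bases after the heat shock element, at the end of the stretch shown above. The search took only exact units at the fixed spacing, so elements with a mismatch or a wider gap were not counted. No match, in SSA3 or for the 3-unit element in the inducible genes, says only that these letters are not in this window. A match is a description of the sequence, and the factors that bind these elements were not measured. The windows can reach into neighbouring genes.

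**Figure D1:**
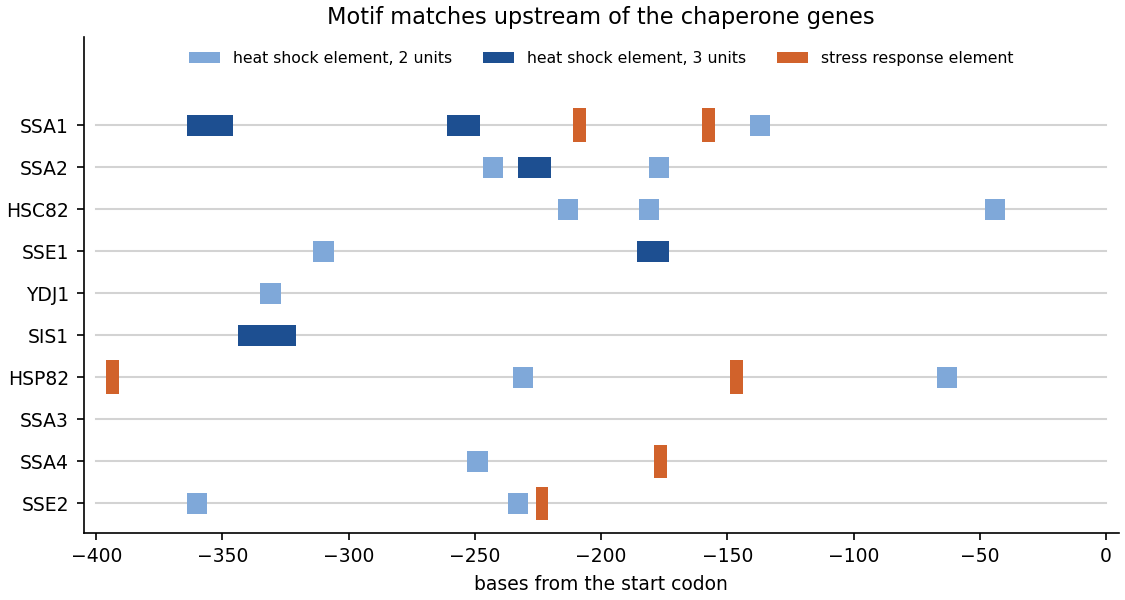
Matches to the 2-unit and 3-unit heat shock elements and to the stress response element in the 400 bases before the start codon of each gene, with the distance from the start codon in bases on the x axis. Exact matches to the 3-unit heat shock element lie upstream of 4 of the 10 genes, all of them constitutive. The stress response element lies upstream of 4 of the 10 genes, 3 of them inducible (bottom) and 1 constitutive.

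Library totals ranged from 6782522 to 9410398 counts, and the 10 genes together took between 0.96% and 1.11% of a library. Counts were scaled to a common library size as CPM with TMM factors, which lay between 0.991 and 1.01. The lowest count of any of the 10 genes in any library was 630 (SSA3), so all 10 passed the filter on low counts. The library of wild-type replicate 1 stood apart on the first principal component, at -20.5, where the other 5 lay between -1.56 and 12.2. The Spearman correlation across genes between coding length and a library's deviation was highest in wild-type replicate 1, at 0.336, and lowest in the third wild-type library, at -0.39. The part of that library and of length in the values below was not tested. Fits without wild-type replicate 1 and with a correction for length are given beside the strain comparison.

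The levels of the 10 genes spanned a wide range in cells growing on acetate. On the scale of CPM per kb of coding length, SSA1 was far above the rest, with 1991, 2392 and 2511 in the wild-type replicates 1, 2 and 3 and 2222, 2428 and 2344 in the deletion replicates. It ranked 26 among 5519 genes with a length. The constitutive HSC82, SSE1 and SSA2 followed, with wild-type means of 702 ± 48.8, 678 ± 78.6 and 572 ± 95.4 CPM per kb (SD, n = 3 each). In the wild type HSC82 overlapped with SSE1, and SSE1 with SSA2, so these neighbours are not ordered beyond their spread. YDJ1 stood at 461 ± 24.5 and SIS1 at 382 ± 42.8 CPM per kb in the wild type (SD, n = 3 each), and these ranges did not overlap each other. The lowest wild-type library of SSA2, at 464, lay within the range of YDJ1, which ran from 442 to 489.

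Each inducible gene was below each constitutive gene in every library. HSP82 measured 230.2 ± 24.3 CPM per kb in the wild type, SSE2 117 ± 5.5, SSA4 108 ± 6.26 and SSA3 49.6 ± 5.98 (SD, n = 3 each). SSE2 and SSA4 overlapped within each strain, while HSP82 lay above and SSA3 below both in all 6 libraries. In the deletion strain the same order held, with HSP82 at 192 ± 29, SSE2 at 91.7 ± 5.04, SSA4 at 86.8 ± 2.58 and SSA3 at 43.7 ± 2.17 CPM per kb (SD, n = 3 each). SSA3 ranked 3127 of 5519, so its mRNA was present but below the middle of the table.

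**Figure D2:**
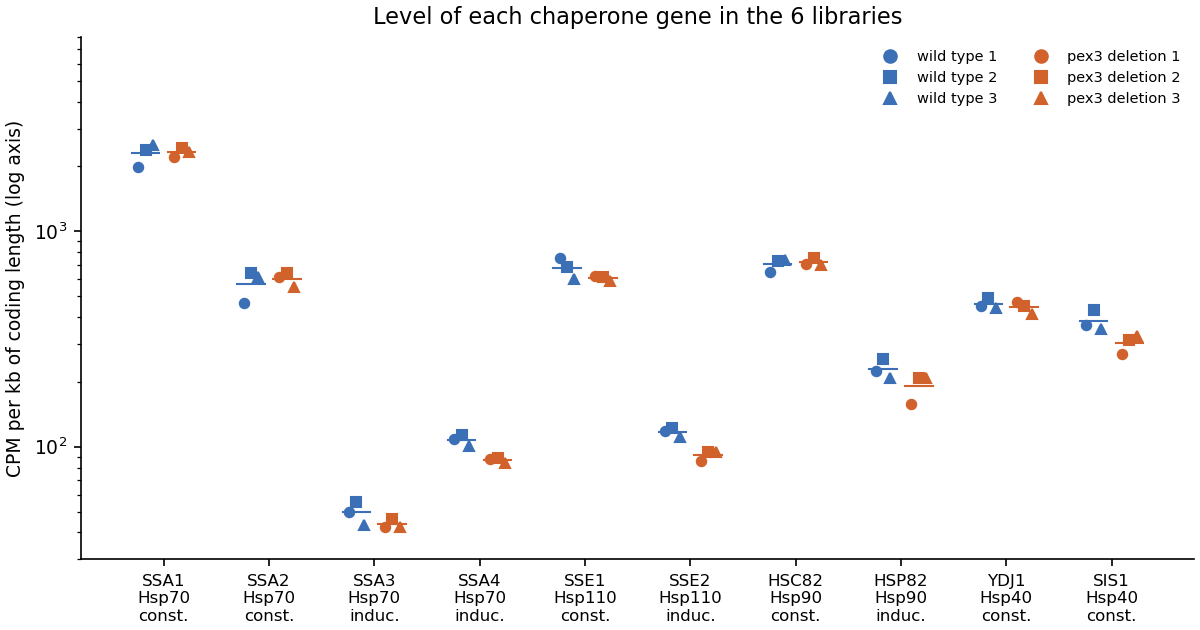
CPM per kb of coding length (log axis) of each gene in the 3 wild-type and 3 deletion libraries, with points for libraries and lines for the mean of each strain. SSA1 lies near 2300 in both strains, and the 4 inducible genes (HSP82, SSE2, SSA4 and SSA3) lie below the 6 constitutive ones.

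Ratios within a library compare members of a family, and are given here over the libraries of both strains. SSE1 exceeded SSE2 by 2.63 ± 0.15 on the log2 scale of CPM per kb (SD, n = 6), or 6.18-fold. HSC82 exceeded HSP82 by 1.76 ± 0.24 (3.39-fold) and SSA2 exceeded SSA4 by 2.59 ± 0.28 (6.04-fold; SD, n = 6 each). Both copies of each family were thus present as mRNA in all 6 libraries, with the constitutive copy the more abundant. Among the inducible Hsp70 genes, SSA4 exceeded SSA3 by 1.06 ± 0.10 (2.08-fold), and among the Hsp40 genes YDJ1 exceeded SIS1 by 0.42 ± 0.22 (1.33-fold; SD, n = 6 each). Of the constitutive Hsp70 genes, SSA2 was below SSA1, with a log2 ratio of -1.98 ± 0.10 (SD, n = 6). The strains did not overlap for SSA2 over SSA4, with means of 2.40 in the wild type and 2.79 in the deletion strain. They also did not overlap for YDJ1 over SIS1, with means of 0.27 and 0.56 in the same order. The gap there was small, from 0.334 in wild-type replicate 3 to 0.342 in deletion replicate 3. The SD of both pairs thus includes the difference between strains. Of 5628 single rows, 435 were lower and 491 higher in the deletion strain without overlap, and no such share was computed for ratios. SSA4 and SIS1 were chosen with the strain contrast known, so nothing is read from either separation. Each of the 6 ratios had the same sign in 6 of 6 libraries, which gave p = 0.03125 in a two-sided exact sign permutation test, the smallest value that 6 libraries allow, and 0.03125 after Benjamini-Hochberg adjustment over the 6 pairs.

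How far these ratios can be read depends on sequence shared between copies. The coding sequences of SSA1 and SSA2 are 96.4% identical, with an identical run of 383 bases, and 45.8% of the 100-base stretches of SSA1 occur elsewhere in the R64 genome. HSC82 and HSP82 are 91.7% identical, with a longest identical run of 113 bases, and 0.693% of the 100-base stretches of HSC82 occur elsewhere. For stretches of 50 bases the shares were larger, at 57.9% for SSA1 and 6.43% for HSC82. How the counting divided reads that match both copies is not given in the sources used here, so the split between SSA1 and SSA2 is uncertain, and that between HSC82 and HSP82 less so. The ratio of SSA2 over SSA4 rests on the same SSA2 row and shares its uncertainty. SSA3 and SSA4 are 76.6% identical and SSE1 and SSE2 71.8%, and 0 of the 100-base stretches of SSA3, SSA4, SSE1, SSE2, YDJ1 and SIS1 occur elsewhere. Each of the 10 genes has 1 exon in the RefSeq annotation of R64, with SSA4 at chrV:364589-366517 (plus strand), SSE2 at chrII:573915-575996 and SIS1 at chrXIV:618507-619565 (both minus strand). That annotation places no other gene over any of the 10.

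**Figure D3:**
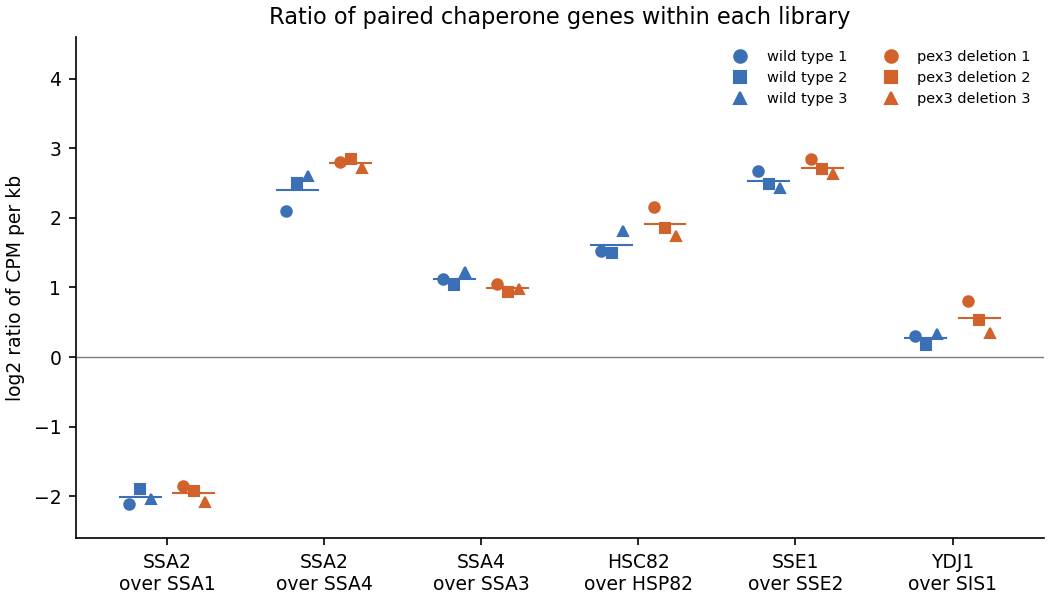
Log2 ratio of CPM per kb between paired chaperone genes in each library, with lines for the mean of each strain. SSE1 over SSE2 lies near 2.63 and SSA2 over SSA1 near -1.98, and each ratio keeps its sign in all 6 libraries.

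Between the strains, the 4 inducible genes had log2 fold changes from -0.35 to -0.18 (deletion over wild type). Of the 6 constitutive genes, SIS1 stood at -0.34 and SSE1 at -0.17, while SSA1, SSA2, HSC82 and YDJ1 were within 1 SE of 0. In the edgeR quasi-likelihood test over 5628 rows, 0 of the 10 genes passed an adjusted p of 0.05, where 0.178% of all rows did. Their smallest adjusted p was 0.28, for SSE2. At an unadjusted p under 0.05 there were 3 of the 10 genes (SSE2, SSA4 and SIS1, all lower), where 5.15% of all rows were lower at that p. DESeq2 called 1 of the 10, SSE2, as lower, against 0.569% of all rows, and limma voom called 0. Of the 10 genes 7 had a negative log2 fold change, where 48.6% of all rows did. Since the group was chosen with this contrast known, nothing is read from these counts. The median log2 fold change was -0.29 over the 4 inducible genes and -0.02 over the 6 constitutive genes, beside 0.006 over all tested rows. Without wild-type replicate 1 these medians were -0.29 and -0.07, and with the correction for length -0.28 and -0.002. In bulk cultures, a lower level in each cell and a lower level in some of the cells cannot be told apart.

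Among the nucleotide exchange factors, SSE2, the inducible Hsp110, had 245, 254 and 231 CPM in the wild-type replicates 1, 2 and 3 and 179, 196 and 198 CPM in the deletion replicates. All 3 deletion libraries lay below all 3 wild-type libraries. The log2 fold change was -0.35 (SE 0.08, edgeR adjusted p 0.28), and DESeq2 gave -0.36 (SE 0.09, adjusted p 0.0219). SSE1, the main Hsp110 of growing cells, had 1571, 1422 and 1244 CPM in the wild-type libraries, and the deletion libraries had 1285, 1273 and 1218 CPM. Its strains overlapped, because wild-type replicate 3 lay among the deletion libraries. Its log2 fold change of -0.17 (SE 0.10) was -0.08 without wild-type replicate 1, the highest library, and -0.25 without wild-type replicate 3.

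For the inducible Hsp70 SSA4 the wild-type libraries held 209, 219 and 195 CPM and the deletion libraries 169.7, 171 and 162 CPM. The strains did not overlap, which was true of lower values for 7.73% of all rows and for 3 of the 10 genes (SSE2, SSA4 and SIS1). The log2 fold change of SSA4 was -0.31 (SE 0.07, edgeR adjusted p 0.323), and leaving out each library moved it between -0.36 and -0.28. DESeq2 gave -0.32 (SE 0.09, adjusted p 0.0565), just above the threshold. SSA3, the least abundant Hsp70, had 97.4, 108 and 84.6 CPM in the wild type and 82.8, 90.1 and 82.7 CPM in the deletion strain. Its strains overlapped in wild-type replicate 3, and its log2 fold change of -0.18 (SE 0.10) was -0.10 without wild-type replicate 2 and -0.27 without wild-type replicate 3.

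SSA1 and SSA2 are the Hsp70 genes that serve unstressed cells, and neither stood apart between the strains. SSA1 measured 3842, 4614 and 4844 CPM in the wild-type libraries, and the deletion libraries had 4286, 4684 and 4521 CPM. SSA2 measured 890.0, 1233 and 1173 CPM and 1180.3, 1227 and 1061 CPM in the same order. In both genes wild-type replicate 1 was the lowest of the 6 libraries and the deletion libraries lay within the wild-type range. The log2 fold changes were 0.02 (SE 0.10) for SSA1 and 0.07 (SE 0.13) for SSA2, and -0.07 and -0.06 without wild-type replicate 1. With the rows of both genes summed, which removes the question of how shared reads were split between them, the log2 fold change was 0.03 (SE 0.10).

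Of the Hsp90 pair, the constitutive HSC82 had 1368, 1536 and 1556 CPM in the wild-type libraries, and the deletion libraries had 1492, 1597 and 1469 CPM, a log2 fold change of 0.03 (SE 0.08). The inducible HSP82 had 480.4, 546 and 444 CPM in the wild-type libraries, and the deletion libraries had 338, 446 and 443 CPM. HSP82 overlapped between strains, and deletion replicate 1 was well below the other libraries. The log2 fold change of HSP82 was -0.26 (SE 0.13), and -0.14 without deletion replicate 1. Summed, the Hsp90 rows differed by -0.04 (SE 0.08) on the log2 scale, because HSC82 supplies most of the sum.

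SIS1, an essential Hsp40 with roles at misfolded and aggregated proteins, had 387, 457 and 371 CPM in the wild type and 285, 329.8 and 345 CPM in the deletion strain. It was the constitutive gene whose strains did not overlap, with deletion replicate 1 the lowest library. The log2 fold change was -0.34 (SE 0.11, edgeR adjusted p 0.482), close in size to that of SSE2. YDJ1, the abundant farnesylated Hsp40, had 556, 601 and 543 CPM in the wild type and 579.7, 553 and 508 CPM in the deletion strain, a log2 fold change of -0.05 (SE 0.08). The strains of YDJ1 overlapped.

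**Figure D4:**
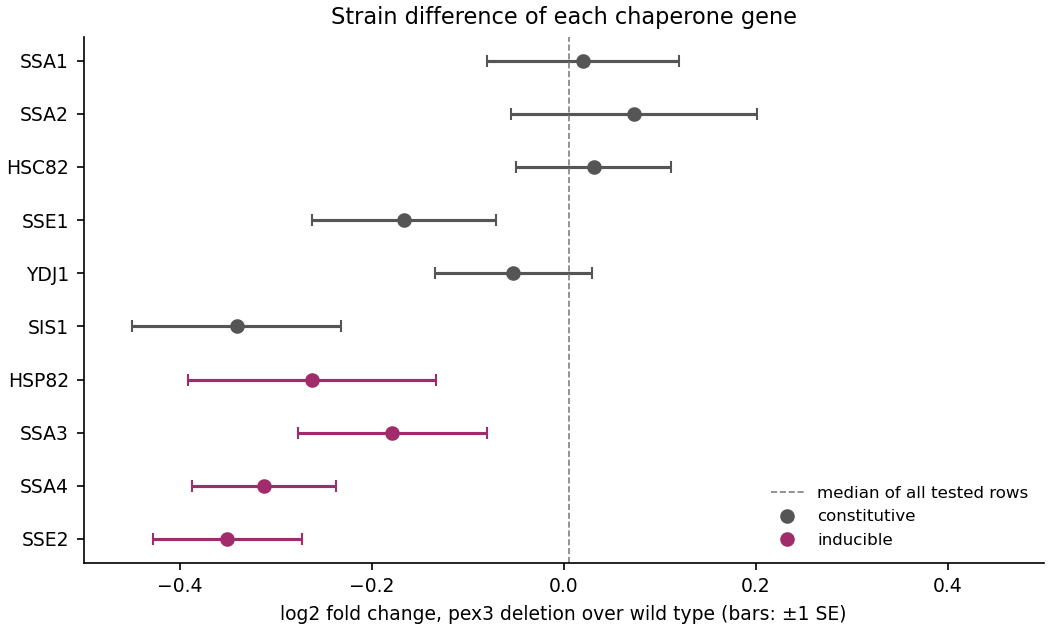
Log2 fold change of each gene between the deletion strain and the wild type in the edgeR fit, with bars of ±1 SE (n = 3 libraries per strain) and a dashed line at the median of all tested rows, 0.006. The 4 inducible genes lie between -0.35 and -0.18, and the constitutive genes between -0.34 (SIS1) and 0.07 (SSA2).

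Added together, the 4 inducible genes gave 1033, 1127 and 955 CPM in the wild-type libraries, and the deletion libraries had 769, 903 and 885 CPM. The deletion mean was 82.1% of the wild-type mean, and the strains did not overlap. The 6 constitutive genes summed to 9403 ± 686 CPM in the wild type against 9298 ± 317 CPM without PEX3 (SD, n = 3 each), with overlap, and the deletion mean was 98.9% of the wild-type mean. The inducible genes therefore made up 10.7%, 10.3% and 8.94% of the CPM of the group in the wild-type replicates and 7.78%, 8.54% and 8.84% in the deletion replicates. The highest deletion library and the lowest wild-type library, both replicate 3, differed little in this share. These sums are descriptions, since the genes were chosen with the strain comparison known.

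**Figure D5:**
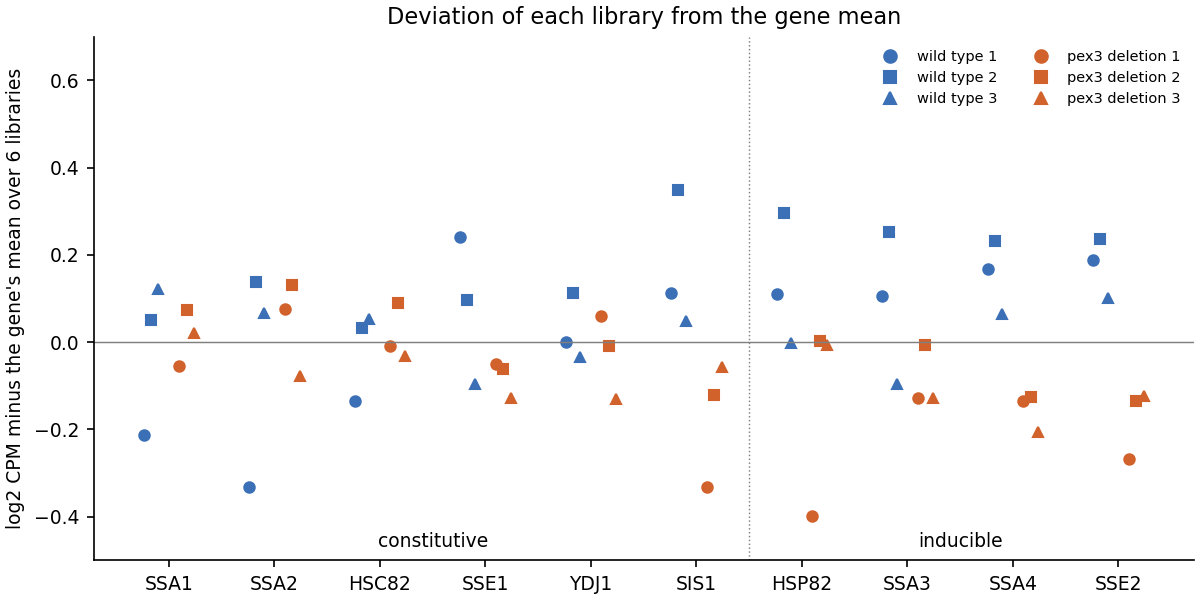
Deviation of each library from the mean log2 CPM of the gene over the 6 libraries, with the constitutive genes left and the inducible genes right of the dotted line. Wild-type replicate 1 is the lowest library for SSA1 (-0.21), SSA2 (-0.33) and HSC82 (-0.13) and the highest for SSE1 (0.24), and deletion replicate 1 is the lowest for HSP82 (-0.40), SIS1 (-0.33) and SSE2 (-0.27).

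The genes did not vary from library to library as one group. SSA1, SSA2 and HSC82 were all lowest in wild-type replicate 1, where they deviated by -0.21, -0.33 and -0.13 on the log2 scale from their means. SSE1 was highest in that same library, at 0.24. HSP82, SIS1, SSA3, SSA4 and SSE2 were all highest in wild-type replicate 2, with deviations between 0.23 and 0.35, as was YDJ1, at 0.11. Over the 6 libraries, the Pearson correlation of log2 CPM with SSA4 was 0.94 for SSE2, 0.84 for SIS1, 0.83 for SSA3, 0.77 for SSE1, 0.69 for HSP82 and 0.59 for YDJ1. With strain means removed, the values in the same order were 0.41, 0.40, 0.93, 0.69, 0.32 and 0.82. For SSE2, SIS1 and HSP82 the correlation thus rested in large part on the difference between strains, while within strains SSA3, YDJ1 and SSE1 were the members most like SSA4. SSA1, SSA2 and HSC82 correlated with SSA4 at -0.21, -0.18 and -0.21. Against SSA2 the correlation was 0.93 for HSC82 and 0.83 for SSA1. These coefficients describe 6 libraries that also differ in depth and in their length trend, and no p is given.

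Among 5205 genes with a mean of at least 10 CPM, the 5 with the pattern most like SSA4 were YKL107W, DUR12, TDH1, PDL32 and RCR2, with Pearson correlations from 0.970 to 0.982. DUR12 encodes urea amidolyase and TDH1 a glyceraldehyde-3-phosphate dehydrogenase. With strain means removed, their correlations with SSA4 lay between 0.71 (TDH1) and 0.94 (DUR12). SSE2 was the member nearest to SSA4, at rank 29. The 5 genes most like SSA2 were EPL1, LSM5, ISD11, BOL2 and SWM1, with correlations from 0.973 to 0.99, and HSC82 was at rank 65. These names describe a likeness over 6 libraries only.

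The remaining chaperone genes were followed in 9 lists with 74 genes, all of them in the table. In the edgeR fit 0 of the 74 passed an adjusted p of 0.05, and 6 were at an unadjusted p under 0.05, all lower (HSP26, HSP42, BTN2, CUR1, HSP104 and FES1), where 0.178% of all rows passed and 5.15% were lower at that unadjusted p. DESeq2 called 1, HSP26, with a log2 fold change of -0.53 (SE 0.11, adjusted p 0.000161), where it called 0.569% of all rows as lower, and limma voom called 0. Over the 74 genes 41 were higher and 33 lower, with a median log2 fold change of 0.02.

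Partners of the group had small fold changes, and 0 passed the test. Of 12 Hsp90 co-chaperone genes, 3 were higher and 9 lower, with a median of -0.02 and a range from -0.11 to 0.21. The most abundant were SBA1, the p23 homolog, at -0.03 (SE 0.07) and STI1, which links Hsp70 to Hsp90, at -0.11 (SE 0.08). Of the nucleotide exchange factors outside the Hsp110 family, FES1 had a log2 fold change of -0.17 (SE 0.07) and SNL1 of 0.10 (SE 0.11). The 9 other cytosolic J-domain genes had a median of 0.02 and a range from -0.08 to 0.18, with CAJ1 at 0.02 (SE 0.08) and DJP1, which acts in peroxisomal protein import, at -0.04 (SE 0.07). SIS1, at -0.34, was thus below the lowest of these J-domain genes, which is a description of a gene chosen for its family.

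Chaperones at the ribosome and of the chaperonin pathway had medians above 0. All 7 ribosome-associated genes were higher, where 2894 of 5628 tested rows were. Their median was 0.10, with a range from 0.01 to 0.13, and 0 passed the test. Among them the Hsp70 genes SSB1 and SSB2, near-identical copies that bind nascent chains, stood at 0.12 (SE 0.08) and 0.13 (SE 0.07). Of 14 genes for the chaperonin TRiC and for prefoldin, 12 were higher, with a median of 0.06 and a range from -0.29 to 0.09. Here too 0 passed the test, and CCT2 and CCT6 were at 0.08 (SE 0.08) and 0.05 (SE 0.06). Genes of a list are not independent, so no weight is put on these counts.

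Hsp70 systems of other compartments gave mixed values. The 7 endoplasmic reticulum genes had a median of -0.01, with KAR2, the Hsp70 of that compartment, at -0.12 (SE 0.24) and SEC63 at 0.02 (SE 0.09). The 10 mitochondrial genes had 5 higher and 5 lower members, a median of 0.02 and a range from -0.41 to 0.26. Among them the Hsp70 gene SSC1 was at 0.17 (SE 0.07) and HSP60 at 0.19 (SE 0.10). The 7 genes for the disaggregase, small heat shock and sorting proteins had the lowest median, -0.52, with 5 lower and 2 higher and a range from -0.61 to 0.07. HSP26, a small heat shock protein, stood at -0.52 (SE 0.09, edgeR adjusted p 0.119), and HSP12, a membrane-associated stress protein, at 0.07 (SE 0.15). The 6 transcription factor genes of the heat shock and stress responses had a median of -0.02 and a range from -0.10 to 0.03, with HAC1 at -0.10 (SE 0.14) and YAP1 at -0.06 (SE 0.08).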

How the data were processed

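Poly(A) RNA of 6 cultures (3 per strain) was measured by RNA sequencing. The deposited table holds whole-number counts per gene, taken as rounded expected counts, because the submitters' processing notes name fastp 0.20.0, STAR and RSEM 1.3.3 with the build R64, with no roles. Filters and annotation are not given in the sources used here, and no row of the table had a total under 62. Columns were matched to samples by strain and number. Of 5631 rows, 5522 matched a locus of the RefSeq annotation of R64, which gave symbols and coding lengths.

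Counts were tested with edgeR 4.0.16 (glmQLFit, glmQLFTest) in R 4.3.3, with TMM factors, filterByExpr (5628 rows left), strain alone in the design, and Benjamini-Hochberg adjustment over all rows at 0.05. The SE is the log2 fold change divided by the square root of F. The edgeR fit and the length correction were tested on simulated data. Ratios within a library were tested by exact sign permutation. Correlations used log2 CPM with a prior count of 2. Alternatives were DESeq2 1.42.0, limma 3.58.1 voom, other scalings and filters, a stricter threshold (0.01), a block on replicate number, a loess length correction (span 0.3), summed paralog rows and leaving out each library. Biopython 1.88 aligned the coding sequences. Names follow a rule: all 10 members, per list any called gene and the 2 with the highest mean CPM per kb, and the 5 genes most like SSA4 and SSA2. Genes named at an unadjusted p were picked with their values known. The members and lists were chosen with earlier results of these data known. No library pair agreed within sampling noise (chi-square per degree of freedom of at least 6.81).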

Additional observations from a re-analysis of the deposited data

How the results depend on the processing

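The count of 0 of the 10 genes past the edgeR threshold held under 17 of 18 alternatives, the exception being DESeq2, which called 1. Likewise 0 of the 74 listed chaperone genes were called under 17 of 18, and 1 with DESeq2. At the threshold of 0.01 a count of 0 cannot rise, and fits without 1 library have less power. These alternatives therefore add little to either count of 0. The number called over the whole table, 10, was 58 with DESeq2, 17 with the length correction, 1 with the replicate block and 3 at a threshold of 0.01, and leaving out each library gave from 3 to 15. With the replicate block, 3 of the 10 genes had an unadjusted p under 0.05, and the adjusted p of all 10 was at least 0.532. Leaving out each library, the number at an unadjusted edgeR p under 0.05 ran from 2 (without wild-type replicate 2) to 5 (without wild-type replicate 3). The replicate numbers were not treated as pairs, since the deviations of same-numbered libraries correlated at -0.16, 0.23 and -0.26. The median of the inducible genes lay between -0.34 and -0.23 over all 17 alternatives and that of the constitutive genes between -0.11 and 0.02, where the sign differed in 3. Without wild-type replicate 1, all 10 genes were below 0 and the medians were -0.29 and -0.07. The log2 fold change of HSP82 was -0.04 once its row was summed with HSC82, by construction. The 6 ratios within families kept their sign under all 10 alternatives each. For the fits without 1 library and for each strain alone this was fixed in advance, since no single library had the other sign. It is therefore no support for these ratios. With 5 libraries their exact p cannot go below 0.0625. Leaving out each library, the log2 ratios ranged from -2.01 to -1.96 for SSA2 over SSA1, from 2.54 to 2.69 for SSA2 over SSA4, from 1.03 to 1.08 for SSA4 over SSA3, from 1.68 to 1.81 for HSC82 over HSP82, from 2.58 to 2.67 for SSE1 over SSE2 and from 0.34 to 0.46 for YDJ1 over SIS1. Every count of the 10 genes was 630 or more in each library.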
